A study of Mus musculus with 4 samples.

Results

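Macrophages and microglia were followed in the mouse lens by 10 marker genes chosen by name for their known roles, *C1qa*, *C1qb*, *C1qc*, *Csf1r*, *Cx3cr1*, *Tyrobp*, *Cd68*, *Aif1*, *Lyz2* and *Spp1*. Of these, 9 were among the 14924 genes of the expression table, and *Aif1*, which encodes the marker protein IBA1, was not analysed here. RNA-seq was performed on lenses of untreated 1-month-old mice on a C57BL/6J background, with 2 libraries from S100A4-/- (S100A4 null) mice and 2 from wild type (WT) littermates, and every library pooled 6 to 12 lenses. The S100A4-/- line is a knockout of the whole animal, so immune cells in or around the lens lack S100A4 too, and the sex of the animals in each pool is not given in the sources used here. Reads on genes totalled 81602367 and 74108017 for the S100A4-/- pools, and 70253985 and 68038158 for the WT pools. Values below are normalized read counts, the reads on a gene over the size factor of its library, so that 1 read equals between 0.856 and 1.09. The targeted gene, *S100a4*, stood at 14.6 and 18.2 in null lenses versus 14420 and 14385 in WT, which matched the labels.

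Macrophages are phagocytes of most tissues, and microglia are their counterpart in the brain and retina. Both depend on the receptor CSF1R, which binds the growth factors CSF1 and IL-34, and both make C1q, whose A, B and C chains assemble into the molecule that starts the classical complement pathway and tags debris and synapses for removal. The lens itself has no blood vessels once mature, while the ciliary body, the vessels around the lens and the retina hold many such cells. In RNA of whole tissue, fewer cells of a type and less RNA per cell cannot be told apart.

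The 3 C1q genes lie side by side on the minus strand of chromosome 4 (GRCm38), in the order *C1qb*, *C1qc*, *C1qa*, within 18675 bases from 136880129 to 136898803. PU.1, encoded by *Spi1*, is a transcription factor that directs the myeloid lineage and binds purine-rich sites with the core GAGGAA. This core was searched on both strands of the 250 bases before each start site in RefSeq promoters of GRCm38.p6. The search covered 6 of the 9 markers, with 7 windows. No window was found for *C1qa* and *Tyrobp*, and *Csf1r* was left out of the search, so the counts do not cover these genes. The core was present in 4 of the 7 windows, those of *C1qb*, *C1qc*, *Cd68* and 1 of 2 windows of *Spp1*. Among all 32851 promoter windows of this length, 23.3% held it. A longer form that contains the core, GAGGAAGT, was present in the windows of *C1qc* and *Spp1* and in 2.44% of all windows. The windows of 3 markers that differed between the genotypes are shown to let the shared letters be seen, 5′ to 3′ on the strand of the gene, with the core or its reverse complement in capitals. They cover chr4:136886201-136886450 (minus strand) for *C1qb*, chr4:136892915-136893164 (minus strand) for *C1qc* and chr5:104434861-104435110 (plus strand) for *Spp1*.
C1qb: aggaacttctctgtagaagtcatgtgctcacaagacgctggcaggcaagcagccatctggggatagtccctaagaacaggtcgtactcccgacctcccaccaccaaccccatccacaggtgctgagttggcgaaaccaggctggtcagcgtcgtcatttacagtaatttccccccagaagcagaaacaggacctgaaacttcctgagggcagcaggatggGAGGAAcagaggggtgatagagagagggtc
C1qc: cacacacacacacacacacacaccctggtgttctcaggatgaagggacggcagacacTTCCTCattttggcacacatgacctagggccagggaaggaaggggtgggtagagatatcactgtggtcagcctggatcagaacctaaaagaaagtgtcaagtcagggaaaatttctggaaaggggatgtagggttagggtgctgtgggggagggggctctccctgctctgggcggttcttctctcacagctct
Spp1: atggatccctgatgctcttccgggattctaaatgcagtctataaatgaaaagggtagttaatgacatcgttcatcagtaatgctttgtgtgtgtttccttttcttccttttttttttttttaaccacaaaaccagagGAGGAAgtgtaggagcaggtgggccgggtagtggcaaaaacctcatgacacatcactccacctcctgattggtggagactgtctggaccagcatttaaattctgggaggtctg
The core began 30 bases before the start site of *C1qb* and 113 bases before that of *Spp1*, and its reverse complement began 193 bases before that of *C1qc*. The windows of *Cx3cr1* and *Lyz2* did not hold these letters. Binding of PU.1 was not measured.

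To ask whether transcripts of these cells differed between genotypes, the S100A4-/- and WT pools were compared by limma on log2(value + 1) across 14780 genes that reached a value of 10 in any library. A gene passed with at least a 2-fold change and a Benjamini-Hochberg adjusted p of at most 0.05. All 3 C1q chains, *Csf1r* and *Spp1* rose in S100A4-/- lenses. *Cx3cr1*, *Tyrobp*, *Cd68* and *Lyz2* did not pass, although both null values lay above both WT values for each of them. No marker was lower, at an unadjusted p under 0.05 or by edgeR or DESeq2. Thus 5 of the 9 markers passed upward, beside 3.65% of all genes tested, while 0.0744% of all genes passed downward. For all 9 markers the null values lay above the WT values without overlap, as they did for 23.7% of all genes, and 23.2% of all genes lay below without overlap. The median log2 fold change of the markers was 1.47, that of all genes -0.01.

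Genes with few reads passed more often than others. Among the 3402 genes whose mean value fell in the range of the markers, 6.51 to 57.9, 8.58% passed upward and 33.2% lay above without overlap. In addition, *Spp1*, *Tyrobp* and *Cd68* reached a value of 10 only in null lenses, so they could enter the test only by being high there. Among the 6 markers that reached 10 in a WT library, 4 passed and 6 lay above without overlap, beside 3.05% and 21.2% of the 14020 genes of that kind.

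**Figure D1:**
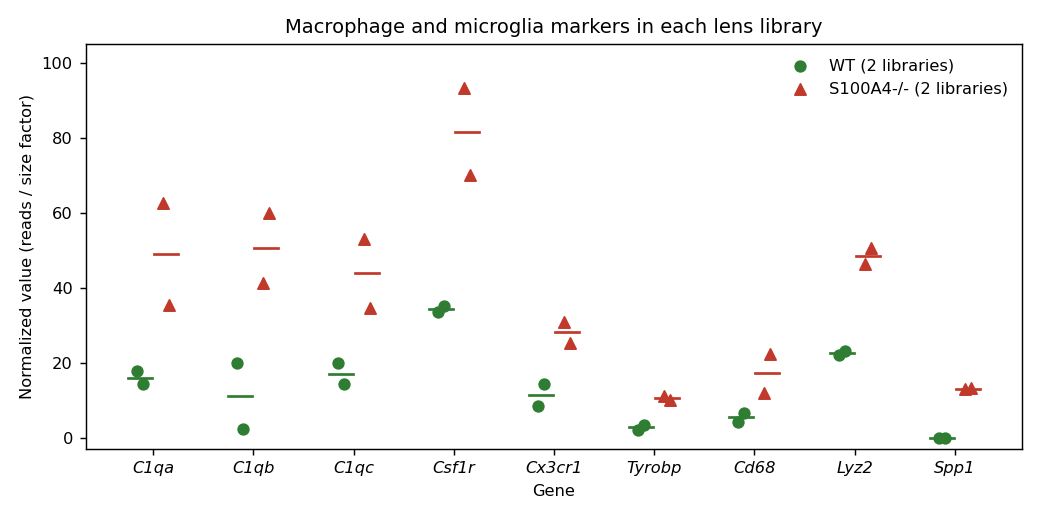
Normalized value (reads over the size factor of the library, vertical axis) of the 9 markers (horizontal axis) in the 2 WT libraries (green circles) and the 2 S100A4-/- libraries (red triangles), with a line at each group mean. Both triangles lie above both circles for every marker, from *Spp1*, at 0 in WT, to *Csf1r*, at 69.9 and 93.3 in S100A4-/- lenses.

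*C1qa* (ENSMUSG00000036887, chromosome 4, 136895917 to 136898803), the A chain of C1q, stood at 62.5 and 35.5 in null lenses versus 17.8 and 14.2 in WT. The first null pool was the higher one, and the WT pools lay close together. The change was 1.51 ± 0.39 (log2 ± SE, adjusted p = 0.0105 by limma). *C1qc* (ENSMUSG00000036896, 136889804 to 136893065), the C chain, showed the same order of libraries, at 53.1 and 34.5 versus 19.8 and 14.2. Its change was 1.30 ± 0.40 (log2 ± SE, adjusted p = 0.0368 by limma), and without the second WT pool it was 1.07 and no longer passed (adjusted p = 0.138).

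*C1qb* (ENSMUSG00000036905, 136880129 to 136886187), the B chain, stood at 41.1 and 59.8 in null lenses versus 19.8 and 2.19 in WT. Here the second null pool was the higher one, opposite to *C1qa* and *C1qc*. The second WT pool held only 2 reads of *C1qb*, beside 13 reads each of *C1qa* and *C1qc*. The change of *C1qb* was 2.63 ± 0.56 (log2 ± SE, adjusted p = 0.00112 by limma), and it was 1.28 without the second WT pool and 3.99 without the first. Each of these smaller fits leaves a lone WT library, whose spread is not measured.

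*Csf1r* (ENSMUSG00000024621, chromosome 18, 61100598 to 61132149), the receptor on which survival of these cells rests, stood at 93.3 and 69.9 in null lenses versus 33.4 and 35.0 in WT. The group means were 81.6 ± 16.6 (SD, n = 2) and 34.2 ± 1.15 (SD, n = 2). The WT pools hardly differed, and the lower null pool was well above both. Its change was 1.22 ± 0.28 (log2 ± SE, adjusted p = 0.00297 by limma). *Cx3cr1* (ENSMUSG00000052336, chromosome 9, 119901616 to 120069879), the receptor of the chemokine fractalkine, stood at 30.8 and 25.3 versus 8.35 and 14.2. The groups did not overlap, but the change of 1.28 ± 0.49 (log2 ± SE) did not pass (adjusted p = 0.120 by limma). *Csf1r* overlaps *Hmgxb3*, and *Cx3cr1* overlaps *Wdr48* and others, on the opposite strand. On the same strand *Cx3cr1* overlaps *Gorasp1*, *Csrnp1* and *Xirp1*, *Csf1r* overlaps *Mir6983* and *Spp1* overlaps *Gm42793*. The library kit was stranded, but the strand setting of the counting is not given in the sources used here, so reads from opposite-strand partners cannot be told apart, and the levels of these 3 genes are uncertain where they share sequence with a partner.

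*Tyrobp* (ENSMUSG00000030579, chromosome 7, 30413760 to 30417585), the adaptor DAP12 that passes on signals of receptors such as TREM2, stood at 11.1 and 10.1 in null lenses versus 2.09 and 3.28 in WT. These are 13 and 10 reads versus 2 and 3. The ratio of the summed reads was 3.99, with an exact 95% interval of 1.49 to 13.5 that covers counting error only, and the test across genes did not pass (adjusted p = 0.287 by limma). *Cd68* (ENSMUSG00000018774, chromosome 11, 69664213 to 69666153), a glycoprotein of the endosomes and lysosomes of phagocytes, stood at 12.0 and 22.3 versus 4.18 and 6.57. The second null pool was the higher one, as for *C1qb*, and the change of 1.47 ± 0.66 (log2 ± SE) did not pass (adjusted p = 0.214 by limma).

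*Lyz2* (ENSMUSG00000069516, chromosome 10, 117277331 to 117282321), the lysozyme of myeloid cells, stood at 46.2 and 50.7 in null lenses versus 21.9 and 23.0 in WT. The pools of each genotype lay close together and the groups were far apart. Its change of 1.07 ± 0.35 (log2 ± SE) just missed the threshold (adjusted p = 0.0549 by limma), and with the replicate number as a block it passed (adjusted p = 0.0403). The mouse carries a near-identical copy, *Lyz1*, and reads that map to several loci were not counted, so the level of *Lyz2* is uncertain.

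*Spp1* (ENSMUSG00000029304, chromosome 5, 104435118 to 104441050) encodes osteopontin, a secreted matrix protein made by activated macrophages and also by bone cells and some neurons. It had 15 and 13 reads in null lenses, values of 12.8 and 13.2, and 0 reads in either WT pool. A count of 0 allows up to 3 reads, a value of 3.13 and 3.28 in the WT pools. Against this floor of 3 reads per library *Spp1* was at least 4.05-fold higher in null lenses, and the test across genes passed (adjusted p = 0.0270 by limma). *Spp1* was the only one of the 9 markers at 0 in any library.

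The number of markers that passed depended on the test and on the null pools. By edgeR's quasi-likelihood test on the recovered reads the same 5 markers passed, beside 3.74% of all genes upward. By DESeq2's Wald test *Csf1r* (adjusted p = 0.0325) and *Spp1* (adjusted p = 0.0183) passed, beside 2.82% of all genes, and *C1qa* (0.0636), *C1qb* (0.590) and *C1qc* (0.193) did not. Fewer markers, and fewer of all genes, passed by limma when either null pool was left out, which leaves a lone library in its group. Without the first null pool the log2 fold change was 1.11 for *C1qa*, 2.90 for *C1qb*, 0.99 for *C1qc*, 1.01 for *Csf1r* and 3.83 for *Spp1*. Without the second it was 1.91, 2.37, 1.60, 1.42 and 3.79 in that order.

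**Figure D2:**
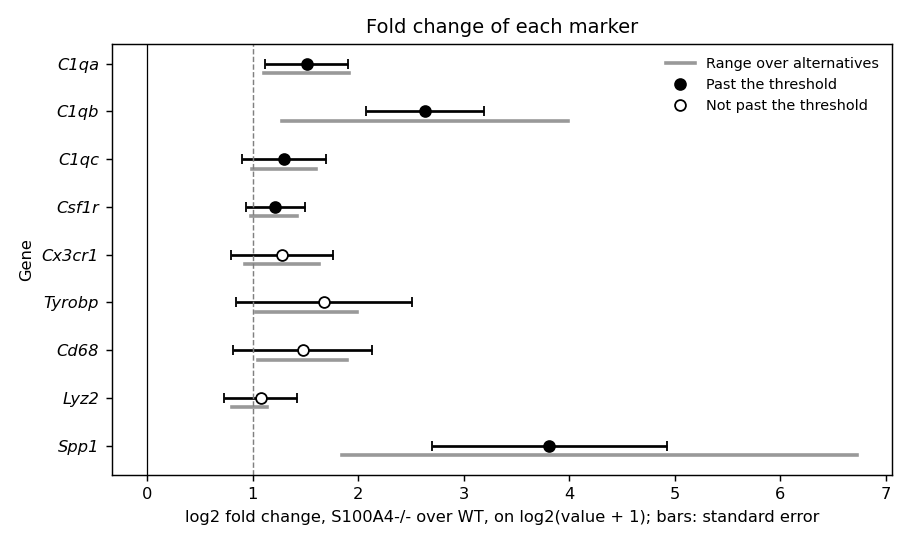
Log2 fold change between S100A4-/- and WT lenses (horizontal axis, dashed line at 2-fold) of the 9 markers (vertical axis), with limma's standard error as bars, filled points past the threshold, and a grey line for the range over the alternative tests and settings, some of which are on a scale without the added 1. No range crosses 0, and that of *C1qb*, 1.28 to 3.99, is the widest after that of *Spp1*.

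Levels of different genes were compared as normalized value per kilobase of exon. In null lenses the mean level per kilobase was highest for *C1qa* (47.1) and *C1qb* (46.4), followed by *Lyz2* (36.8), *C1qc* (22.7), *Tyrobp* (15.9), *Csf1r* (14.1), *Cd68* (13.6), *Spp1* (7.89) and *Cx3cr1* (6.23). In WT lenses *Lyz2* (17.1) and *C1qa* (15.4) led, followed by *C1qb* (10.1), *C1qc* (8.82), *Csf1r* (5.93), *Cd68* (4.27), *Tyrobp* (4.03), *Cx3cr1* (2.51) and *Spp1* at 0. These orders of the means did not hold in every pool. *C1qa* and *C1qb* stood at 60.1 and 37.8 per kilobase in the first null pool and at 34.1 and 55.0 in the second. In WT *C1qb* ranked the highest in the first pool, at 18.2 per kilobase, and the second lowest in the second, at 2.01. *Csf1r*, which held the most reads of the markers, ranked in the middle once its exonic length of 5774 bases was taken into account.

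The genes that act with these markers were examined by role, starting with the ligands of CSF1R. *Il34*, a ligand made by neurons and epithelia, rose from 9.40 and 19.7 in WT to 45.4 and 47.6 in null lenses (log2 change 1.69 ± 0.41 SE, adjusted p = 0.00547 by limma). Without the first WT pool its change was 1.20 and did not pass (adjusted p = 0.0609), nor did it pass by DESeq2 (adjusted p = 0.0563). *Csf1*, the other ligand, stood at 119.9 and 99.3 versus 82.5 and 110.6, and the groups overlapped. Of 10 tested genes, which were the ligands, a related cytokine receptor subunit and transcription factors of the lineage, *Il34* was the only one to pass by limma and edgeR, and 0 passed by DESeq2, with a median log2 fold change of 0.09. *Maf*, a transcription factor of macrophages that lens fiber cells also require, held most of the reads of this list and stood at 35899 and 34813 versus 36773 and 36398.

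*Cx3cl1*, which encodes fractalkine, stood at 619 and 691 in null lenses versus 583 and 613 in WT and did not pass (adjusted p = 0.487 by limma). Of 8 tested chemokines and related genes, 1 passed, *Cxcl16*, a membrane-bound chemokine and scavenger receptor. It rose from 3.13 and 2.19, which are 3 and 2 reads, to 17.1 and 26.4 (log2 change 2.62 ± 0.70 SE, adjusted p = 0.0135 by limma). Like *Spp1*, it reached a value of 10 only in null lenses, and of the 7 genes of the list that reached it in WT 0 passed. *Adam10*, a protease that sheds both chemokines, held most of the reads of the list and stood at 5200 and 5044 versus 5402 and 5160.

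Of 10 tested receptors, adaptors and signalling genes listed around TYROBP, 0 passed by limma, edgeR or DESeq2. Only *Siglec1* had an unadjusted p under 0.05 by limma, and the median log2 fold change of the list was 0.30. Of the 10 genes, 5 reached a value of 10 only in null lenses, *Trem2*, *Fcer1g* and *Siglec1* among them. The median of the 5 that reached it in WT was 0.02. *Trem2*, the lipid-sensing receptor that signals through TYROBP, had 6 and 15 reads in null lenses versus 1 and 3 in WT (adjusted p = 0.334 by limma). *Fcer1g*, an adaptor of the same kind, had 13 and 11 reads versus 5 and 2 (adjusted p = 0.344). *Siglec1*, a sialic acid receptor of tissue macrophages, had 16 and 23 reads versus 3 and 5 (adjusted p = 0.0971). For these 3 genes the null pools lay above the WT pools, with few reads in every library. The kinase *Syk*, which acts downstream of such adaptors, stood at 36.0 and 36.5 versus 24.0 and 32.8.

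Beyond C1q, 0 of 21 tested complement genes passed by limma, edgeR or DESeq2, with 7 at an unadjusted p under 0.05, all 7 with a higher level in null lenses, and a median log2 fold change of 0.07. The median of the 18 that reached a value of 10 in WT was -0.02. Of the proteases that bind C1q, *C1s2* stood at 9.42 and 6.08 in null lenses versus 18.8 and 16.4 in WT, without overlap (log2 change -1.11 ± 0.59 SE, adjusted p = 0.328 by limma), and *C1ra* and *C1s1* had log2 changes of -0.32 and -0.23 (adjusted p = 0.660 for each). *C3*, the central component, stood at 35.1 and 20.3 in null lenses versus 6.26 and 10.9 in WT (adjusted p = 0.0683 by limma). *C4b*, which C1q-bound proteases cleave, stood at 149.9 and 139.9 versus 68.9 and 101.8. Its groups did not overlap and its adjusted p was 0.00970, but its log2 change of 0.78 was under 2-fold. *C3ar1*, a complement receptor of myeloid cells, had 18 and 14 reads versus 1 and 6 (adjusted p = 0.135), and *Itgam*, a subunit of complement receptor CR3, had 14 and 15 versus 4 and 2 (adjusted p = 0.174). Both reached a value of 10 only in null lenses.

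Among genes of lysosomes and phagocytosis, 5 of 33 tested genes rose and 0 fell by limma, edgeR and DESeq2, with 1 negative change at an unadjusted p under 0.05 and a median log2 fold change of 0.01. *Gpnmb*, a glycoprotein of pigment cells and of lipid-laden macrophages, rose from 38.6 and 28.5 in WT to 262 and 302 in null lenses (log2 change 3.05 ± 0.21 SE, adjusted p = 3.46e-14 by limma). *Apoe*, the lipid carrier of glia and macrophages, rose from 2170 and 2690 to 9011 and 8824 (log2 change 1.88 ± 0.06 SE, adjusted p = 3.90e-24). *Ctss*, a cathepsin of antigen-presenting cells, rose from 14.6 and 10.9 to 50.5 and 37.5 (log2 change 1.71 ± 0.42 SE, adjusted p = 0.00551). The lysosomal protease *Ctsh* and the phagocytic receptor *Axl* both rose by 1.26 on the log2 scale (adjusted p = 7.64e-09 and 3.79e-04).

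Of 15 tested matrix proteins and receptors that act with osteopontin, 2 passed. *Vtn*, vitronectin, rose from 118.0 and 92.0 in WT to 379 and 369.9 in null lenses (log2 change 1.84 ± 0.15 SE, adjusted p = 3.82e-12 by limma). *Postn*, periostin, rose from 8.35 and 4.38 to 30.0 and 44.6 (log2 change 2.41 ± 0.52 SE, adjusted p = 0.00151). It reached a value of 10 only in null lenses, and of the 13 genes of the list that reached it in WT 1 passed. *Cd44*, a receptor of osteopontin, stood at 7392 and 7630 versus 7926 and 8110 and did not pass (adjusted p = 0.274).

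To see how other genes of the lineage behaved, 40 pan-macrophage genes were listed, of which 29 were in the table and 27 were tested. By limma 4 of 27 rose and 0 fell, and the median log2 fold change was 1.04. No gene of the list fell by edgeR or DESeq2, and 1 had a negative change at an unadjusted p under 0.05. Of the 15 genes that reached a value of 10 in a WT library, 4 passed and the median was 0.59. *F13a1*, a coagulation factor chain of tissue macrophages, rose from 10.4 and 2.19 in WT to 36.0 and 50.7 in null lenses (log2 change 2.85 ± 0.56 SE, adjusted p = 3.95e-04 by limma). The second WT pool held 2 reads of *F13a1*, and the change was 1.93 without it and 3.78 without the first, with a lone WT library in each fit. *Cd74*, the invariant chain of antigen presentation, rose from 11.5 and 17.5 to 52.2 and 41.6 (log2 change 1.65 ± 0.40 SE, adjusted p = 0.00532). *Mpeg1*, the pore-forming perforin-2, rose from 11.5 and 14.2 to 53.9 and 29.4 (log2 change 1.57 ± 0.43 SE, adjusted p = 0.0171), and *Ctss* was the other. *Mpeg1* did not pass by DESeq2 (adjusted p = 0.0853) or with quantile normalization (0.106). As for all genes, fewer genes of the list passed by limma when either null pool was left out. Without the first null pool the log2 fold change was 3.10 for *F13a1*, 1.48 for *Cd74*, 1.14 for *Mpeg1* and 1.49 for *Ctss*. Without the second it was 2.61, 1.81, 1.99 and 1.92 in that order.

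Some genes of the list that are widely used to mark macrophages did not pass. *Adgre1*, which encodes F4/80, had 12 and 16 reads in null lenses versus 3 and 1 in WT (adjusted p = 0.118 by limma), and *Mrc1*, the mannose receptor, had values of 45.4 and 28.4 versus 14.6 and 21.9 (adjusted p = 0.186). The common leukocyte gene *Ptprc* and the PU.1 gene *Spi1* were not analysed here. *Cd163*, a scavenger receptor of tissue macrophages, stood at 107 and 85.1 versus 90.8 and 98.5, and the groups overlapped. *Dock2*, a regulator of leukocyte migration, was lower in both null pools, at 135 and 134 versus 217 and 214, with a log2 change of -0.67 ± 0.15 SE that was under 2-fold (adjusted p = 0.00284). *Dock2* held 25.7% of the reads of the list, and the summed value of the list was 831 and 733 in null lenses versus 576 and 586 in WT.

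**Figure D3:**
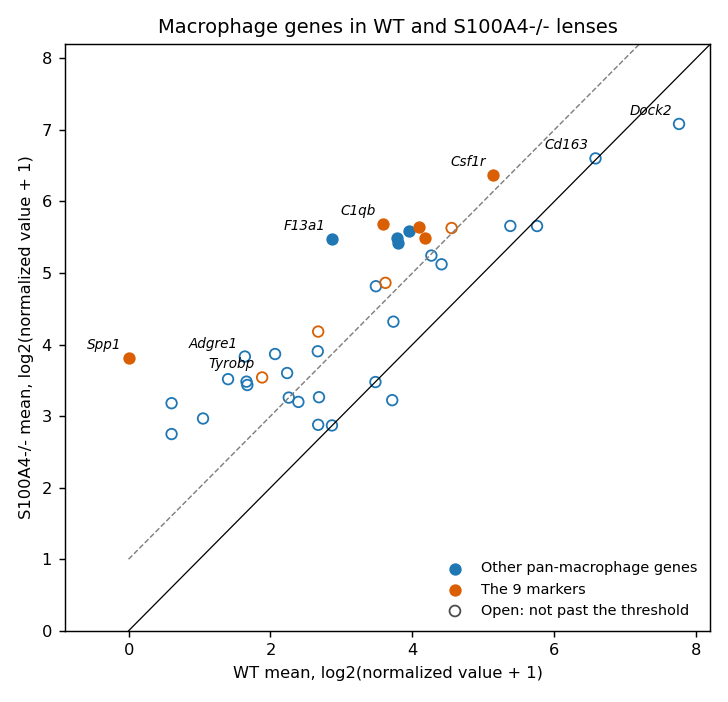
Mean of the 2 S100A4-/- libraries (vertical axis) against that of the 2 WT libraries (horizontal axis), both as log2(mean normalized value + 1), for the 9 markers (orange) and 29 pan-macrophage genes (blue), with filled points past the threshold, a solid line of equality and a dashed line 1 unit above it. Most points lie above the line of equality, *Cd163* lies on it and *Dock2* below it.

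A list of genes of microglia was counted in the same way. Of 16 listed genes, 7 were tested and 0 passed by limma, edgeR or DESeq2, with 1 at an unadjusted p under 0.05, *Olfml3*, and a median log2 fold change of 0.02. *P2ry12*, a purine receptor of resting microglia, had 9 and 16 reads in null lenses versus 10 and 6 in WT, and the groups overlapped. *Fcrls*, an Fc receptor-like gene of microglia, had 20 and 9 reads versus 5 and 3 and did not pass (adjusted p = 0.328 by limma). In *Fcrls*, as in *Trem2*, which is also on this list, both null pools lay above both WT pools. *Tmem119* and *Siglech*, the more specific markers, were not analysed here. Other genes of the list are also made outside microglia. *Sparc*, a matrix protein of many tissues, held 87.9% of the reads of the list and stood at 80681 and 79838 versus 79798 and 78764. *Olfml3* was lower in both null pools, at 5260 and 5856 versus 6365 and 6235, with a log2 change of -0.18 that was under 2-fold (adjusted p = 0.0178), and *Sall1* stood at 3466 and 3302 versus 3486 and 3754.

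Markers of other blood cells were few in the table. Of 11 neutrophil genes 2 were tested and 1 passed, *Lcn2*, lipocalin 2, which epithelia also make. It rose from 12.5 and 25.2 in WT to 67.7 and 76.0 in null lenses (log2 change 1.95 ± 0.35 SE, adjusted p = 1.27e-04 by limma). *Ltf*, lactoferrin, the other, stood at 108.8 and 94.3 versus 79.4 and 54.7 (adjusted p = 0.119). None of 2 tested lymphocyte genes and 1 mast cell gene passed by limma, edgeR or DESeq2, with 0 at an unadjusted p under 0.05, and their sums were 1.14 and 0.887 times those of WT. Of 6 tested red cell and platelet genes 1 passed, the beta-globin gene *Hbb-bs*, at 157.6 and 174 versus 104 and 55.8 (log2 change 1.11 ± 0.22 SE, adjusted p = 4.04e-04), which is uncertain because *Hbb-bt* is nearly identical. Without the second WT pool its change was 0.66, under 2-fold. The red cell and platelet sum was 1.71 times that of WT.

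Genes of vessels, retina, pigment cells and ciliary body were counted in the same way. Of 9 tested endothelial genes 2 rose, the VEGF receptors *Flt1* (240.6 and 239 versus 61.6 and 71.2) and *Kdr* (74.5 and 60.8 versus 9.40 and 9.85), and the list sum was 1.58 times that of WT, with *Egfl7* holding the most reads. *Kdr* reached a value of 10 only in null lenses, and of the 7 endothelial genes that reached it in WT 1 passed. All 12 tested rod genes rose, and their sum was 11109 and 10893 in null lenses versus 2741 and 2882 in WT, 3.91 times, with *Gnat1*, the rod transducin subunit, holding the most reads. The paper had already listed all 12 as raised in these libraries, so this count and sum are no independent yardstick. For comparison, the 9 macrophage and microglia markers summed to 363 and 321 versus 127 and 113, 2.85 times, with 25.1% of the reads on *Csf1r*. In both lists the null pools differed little from each other beside their distance from WT.

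Of 9 tested pigment cell genes 5 rose (4 of the 8 that reached a value of 10 in WT), such as the melanin enzyme *Dct* (581 and 582 versus 31.3 and 44.9), and the sum was 2.11 times that of WT, although *Oca2*, with the most reads, stood at 495 and 507 versus 507 and 494. Of 8 ciliary body genes 4 rose, such as *Col9a1* (2582 and 2268 versus 478 and 601), with a sum of 1.53 times and *Aqp1* holding the most reads. Of 10 Müller glia and astrocyte genes 4 rose, such as glutamine synthetase, *Glul* (5387 and 5421 versus 1779 and 1923), with a sum of 1.13 times and *Dkk3* holding the most reads. Of 9 pericyte and fibroblast genes 1 rose by limma, *Cspg4*, and 0 rose by DESeq2, with a sum of 1.02 times. *Acta2* held 70.5% of the reads of this list, so the sum mostly follows that gene. The median log2 fold change of the list was 0.34, with 7 of 9 changes positive. All 14 lens genes were in the table and 0 passed by limma, edgeR or DESeq2, with 3 at an unadjusted p under 0.05 and a sum of 0.953 times that of WT. No marker of these 7 lists was at 0 in any library. The part of these other tissues in the level of the macrophage and microglia markers was not tested.

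**Figure D4:**
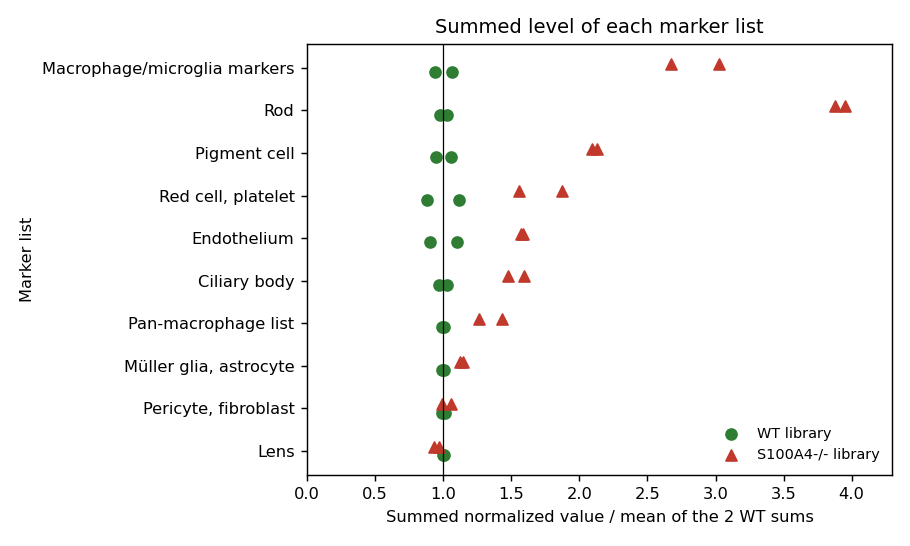
Summed normalized value of each marker list (vertical axis) in each library, over the mean of the 2 WT sums (horizontal axis), for WT libraries (green circles) and S100A4-/- libraries (red triangles). The macrophage and microglia markers, at 2.85 times on average, lie between the rod list at 3.91 and the pigment cell list at 2.11, and the lens list lies just below 1. The paper had already listed every gene of the rod list as raised in these libraries.

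The genes whose pattern over the 4 libraries was most like that of the markers were found by the Euclidean distance of log2(value + 1), centred per gene, from the median profile of the 9 markers, among 13855 other genes whose mean value reached 10. The nearest 5 were *Scn8a* (0.17), *Cacnb2* (0.17), *Rlbp1* (0.18), *Kcna1* (0.19) and *Mcf2l* (0.20). *Scn8a*, a sodium channel of neurons, stood at 53.9 and 46.6 in null lenses versus 19.8 and 19.7 in WT. *Rlbp1*, the retinaldehyde-binding protein of Müller glia and pigment epithelium, stood at 267 and 219 versus 84.6 and 97.4. In both, as in the median profile of the markers, the first null pool was the highest library. With 4 libraries in 2 groups, such likeness is mostly a like difference between the groups.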

How the data were processed

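Lens mRNA of 2 S100A4-/- and 2 WT pools was measured by stranded, single-end RNA-seq, and groups and replicate numbers follow the sample labels. The signal values the authors deposited are HTSeq counts of single-locus reads, after Trim Galore and STAR mapping (mm10, GRCm38), divided by DESeq2 size factors, for genes that reached 10 reads in some library. Tool versions are not given in the sources used here. All values were whole multiples of 1 read (tolerance 0.02 reads), so reads were recovered. Replicates differed beyond sampling noise (mean chi-square per gene 35.2 in S100A4-/- and 15.5 in WT, where sampling gives 1). No column was left without a sample (0 columns).

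Because the deposited values are normalized, limma 3.58.1 (trend, R 4.3.3) on log2(value + 1) was chosen as the main test, with Benjamini-Hochberg adjustment over 14780 genes. The study's own test, DESeq2, could also be run on the recovered reads, and fewer markers passed by it. The added 1 lowers the fold changes of low genes, while averaging logs gives a low library more weight, as for *C1qb* (6.21-fold on this scale, 4.58-fold as a ratio of means). All adjusted p-values are limma's unless DESeq2 1.42.0 or edgeR 4.0.16, run on recovered reads, is named. The tests were checked on simulated data. Alternatives were other pseudocounts, filters, scalings and tests, a replicate block and leaving out each library. Floors of 3 reads cover counting error only.

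Coordinates and exonic lengths are from GENCODE M21, matched for 14782 of 14924 genes. The members and lists were chosen with earlier results of these data known. Genes were named by rule: all markers, from each list up to 4 passing genes with the smallest adjusted p and 3 with the highest mean, *S100a4*, and the 5 nearest profiles. Not all of these are named. *Csf1*, *Cx3cl1*, *Trem2*, *Fcer1g*, *Siglec1*, *C3*, *C4b*, *C3ar1*, *C1s2*, *Itgam*, *Adgre1*, *P2ry12* and other genes outside the rule were named after their values were seen.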

Additional observations from a re-analysis of the deposited data

How the results depend on the processing

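The 15 alternatives reversed the direction of none of the 9 markers. By limma 539 genes passed upward and 11 downward, and 5 markers and 4 pan-macrophage genes passed upward. With a mean value of at least 50 these counts were 281, 6, 1 and 0, since only 1 marker and 3 pan-macrophage genes could then be tested. Without the variance trend they were 174, 7, 2 and 0, where the 2 markers were *Spp1* and *Lyz2*, and the C1q genes and *Csf1r* did not pass. Of the other named genes *Il34*, *Cxcl16*, *Ctsh*, *Ctss*, *Axl*, *Vtn*, *Postn*, *F13a1*, *Cd74*, *Mpeg1*, *Lcn2*, *Hbb-bs*, *Rlbp1* and *Mcf2l* did not pass in that setting, with adjusted p from 0.0508 for *Vtn* to 0.343 for *Hbb-bs*. Quantile normalization gave 23 genes downward and 1 marker, *C1qb*, and *Il34*, *Cxcl16*, *Mpeg1*, *Scn8a* and *Hbb-bs* did not pass. DESeq2 gave 6 genes downward and 2 markers, and *Il34*, *Mpeg1*, *Scn8a* and *Cspg4* did not pass. With a pseudocount of 5 the log2 fold change was 2.03 for *C1qb*, 1.78 for *Cxcl16*, 2.18 for *F13a1* and 1.85 for *Spp1*, and with 0.5 it was 4.76 for *Spp1*, and all of these passed. Without the fold threshold 831 genes passed upward and 197 downward. Apart from the effect of the filter, the cause was not tested. With each library left out in turn, 168 to 546 genes passed upward, 4 to 13 downward, 0 to 5 markers and 0 to 4 pan-macrophage genes, the lowest counts coming without an S100A4-/- library. Without either S100A4-/- library *Il34*, *Cxcl16*, *Ctss*, *Axl*, *Postn*, *F13a1*, *Cd74*, *Mpeg1*, *Lcn2*, *Hbb-bs* and *Scn8a* did not pass, nor *Kdr*, *Cacnb2* and *Mcf2l* without the first. The lone library of a group is then assumed to vary like the other group. Same-numbered libraries did not deviate together (r = 0.0119 across 14780 genes, which are not independent), so the numbers were not taken as pairs. The replicate block gave 576 genes upward, 15 downward, 6 markers (with *Lyz2*) and 4 pan-macrophage genes. Among the other genes followed, values near 0 changed sign. With quantile normalization the log2 fold change was -0.13 for *Cd163*, -0.093 for *P2ry12*, -0.0752 for *Sparc*, -0.0152 for *Oca2* and -0.014 for *Dkk3*. With a library left out it ranged from -0.019 to 0.40 for *Csf1*, -0.15 to 0.18 for *Cd163*, -0.10 to 0.89 for *P2ry12*, -0.049 to 0.23 for *Egfl7* and -0.019 to 0.020 for *Oca2*. Apart from *Csf1r*, with up to 109, no marker had more than 73 reads in a library, and the part of depth in which markers passed was not tested.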
